A study of Mus musculus with 12 samples.

Results

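The genes described here are 10 genes of the actin cytoskeleton and of serum response factor (SRF) control in mouse cumulus cells: Acta2, Tagln, Tpm1, Tpm2, Myl9, Fhl1, Fhl2, Vcl, Flna and Srf. They were named one by one and selected on earlier fold changes of these libraries, which already showed that Acta2 and Fhl1 fell; their fold changes are therefore a description, and no p is given for them. All 10 were among the 13318 genes with a first-exon or last-exon event in the RNA tables, and all 10 were among the 9022 genes tested. The lists of other genes and of markers used below were also chosen with earlier results known. Adjusted p-values given for genes of those lists are therefore descriptive too. Cumulus cells are the granulosa-lineage cells around the oocyte; the labels give them as granulosa cells of antral follicles from Kunming mice. In 1 group of 3 libraries the cells had received follicle-stimulating hormone (FSH) and fetal bovine serum (FBS) for 18 hours. The 3 libraries of the other group are labelled as untreated, with no time in culture, so time in culture, FSH and FBS cannot be told apart. Oocytectomized complexes are part of the study's design, but no label ties the untreated libraries to them. Whether libraries stem from separate cultures or animals is not stated; p-values then measure the spread between these samples alone, which may be technical.

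SRF is a transcription factor that binds a 10-letter element, the CArG box, and works with 2 families of partner. Myocardin and the myocardin-related factors MRTF-A and MRTF-B drive genes of the contractile cytoskeleton; the MRTFs are held back by free actin monomers and released when actin is built into filaments. The ternary complex factors Elk1, Elk3 and Elk4, which are ERK substrates, drive immediate early genes. Smooth muscle alpha-actin, the product of Acta2, is the classical marker of smooth muscle cells and myofibroblasts, and in the follicle it is known from the smooth-muscle-like cells of the outer theca.

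Levels are given in FPKM, fragments per kilobase of transcript scaled to library size, so that genes can be compared per length. A gene's level in a library is the larger of its summed first-exon and its summed last-exon FPKM. Between 10475 and 11398 genes were listed per treated library and between 10786 and 11552 per untreated library; the sequencing depth is unknown. A gene that is not listed is not shown to be absent: Pfn1, the profilin gene that nearly every cell expresses, stood at 297.2 FPKM in untreated library 2 and was listed in no other library. Libraries 1 and 2 of each group were nearly alike. Over the genes tested, a difference above 2-fold was found in 2.82% of genes between treated libraries 1 and 2 and in 4.54% between the untreated pair, against 15.9% to 22.9% for the other pairs within a group. The mean of libraries 1 and 2 was therefore taken as 1 sample, which leaves n = 2 in each group for every mean ± SD. The test is limma on log2(FPKM + 1) across all 9022 genes, with a threshold of 0.05 on the adjusted p. Over all genes the log2 fold change had a median of 0.24, the value against which a single gene is read. After rescaling by median of ratios, equal sums and quantile normalization that median was 0.0062, -0.013 and 0.0042. Rescaled fold changes are read against these values. FPKM summed over all genes was 1.35 times the mean of the libraries in FSH and FBS library 3 and 0.92 to 0.95 times in the others. By median of ratios the factor of that library was 1.09, near the 1.11 and 1.10 of treated libraries 1 and 2. Levels are given as deposited, so how much of a high value in that library is scale was not tested.

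The promoter sequences are shown first because SRF binds the CArG box. RefSeq (GRCm38.p6) gave an entry for 9 of the 10 genes, all but Tagln, in 11 entries. The 250 bases before each start were searched for the CArG box on both strands; the element reads as itself on the other strand. An exact CArG box stood in 6 of the 11 entries, those of 5 genes (Fhl1, Fhl2, Myl9, Vcl and Srf), and in 1.47% of all 32851 RefSeq promoter entries. A box with at most 1 letter off stood in 9 of the 11 entries, those of 8 genes, and in 18.6% of all entries. The 5 promoters printed are those with a box, exact or 1 letter off, at a start that lies within 44 bases of the first exon listed for these cells and whose gene is described at length or holds an exact box. Each is printed 5′ to 3′ up to the base before the RefSeq start, except that Myl9 stops before the first exon listed in these libraries and so lacks the last 44 of the bases searched. The print has exact CArG boxes in capitals; for Acta2, which had no exact box, the capitals mark the 2 boxes that are 1 letter off.
Acta2, chr19:34255374-34255623, minus strand: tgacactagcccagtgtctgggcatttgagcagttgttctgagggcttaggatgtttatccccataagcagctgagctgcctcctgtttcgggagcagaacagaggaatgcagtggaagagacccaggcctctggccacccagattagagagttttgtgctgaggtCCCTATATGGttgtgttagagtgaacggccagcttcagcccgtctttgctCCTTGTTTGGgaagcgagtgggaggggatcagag
Srf, chr17:46556163-46556412, minus strand: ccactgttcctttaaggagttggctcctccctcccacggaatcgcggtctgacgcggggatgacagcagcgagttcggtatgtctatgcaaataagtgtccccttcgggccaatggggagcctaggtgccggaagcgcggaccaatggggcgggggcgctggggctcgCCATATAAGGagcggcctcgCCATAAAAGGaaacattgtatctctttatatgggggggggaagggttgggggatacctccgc
Fhl2, chr1:43163962-43164211, minus strand: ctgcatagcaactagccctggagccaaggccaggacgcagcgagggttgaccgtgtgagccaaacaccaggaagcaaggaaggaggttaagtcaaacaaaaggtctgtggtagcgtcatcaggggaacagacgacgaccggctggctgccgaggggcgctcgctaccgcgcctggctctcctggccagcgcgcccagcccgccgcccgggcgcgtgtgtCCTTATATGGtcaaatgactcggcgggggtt
Vcl, chr14:20929148-20929397, plus strand: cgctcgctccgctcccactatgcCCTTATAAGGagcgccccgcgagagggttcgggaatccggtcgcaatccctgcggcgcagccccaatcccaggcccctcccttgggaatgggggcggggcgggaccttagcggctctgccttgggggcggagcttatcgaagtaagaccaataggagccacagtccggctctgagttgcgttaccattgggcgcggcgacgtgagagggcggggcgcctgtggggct
Myl9, chr2:156775214-156775419, plus strand: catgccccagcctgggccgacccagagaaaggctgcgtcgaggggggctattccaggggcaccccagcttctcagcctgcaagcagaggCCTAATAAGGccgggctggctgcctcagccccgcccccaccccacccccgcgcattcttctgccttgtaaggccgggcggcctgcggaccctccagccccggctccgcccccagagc

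In Srf the exact boxes began 82 and 62 bases before the start, in Fhl2 31 and in Vcl 227 bases before it. In Myl9 the box began 161 bases before the RefSeq start, which is 117 bases before the end of the printed stretch. The Acta2 boxes that are 1 letter off began 84 and 34 bases before the start. Tpm1 also had 2 boxes that are 1 letter off, 221 and 80 bases before its RefSeq start. That start lies 54 bases from the first exon listed, past the limit of 44 bases, so Tpm1 is not printed. The limit is the distance in Myl9, the largest among the promoters printed. The exact box of Fhl1 belongs to a RefSeq start 47896 bases from the first exon listed in these libraries, so that promoter is not printed. A match is a description of the letters in this window and not a binding site. Since the genes were named for actin and SRF control, nothing is read from their share of boxes. 

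Acta2 and Fhl1 were the 2 of 10 genes past the threshold, both lower after FSH and FBS. Across all genes tested 2.37% were called, 1.68% higher and 0.687% lower; since the genes were picked with these calls known, nothing is read from the share. The median log2 fold change of the 10 genes was 0.42, against 0.24 over all genes.

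**Figure D1:**
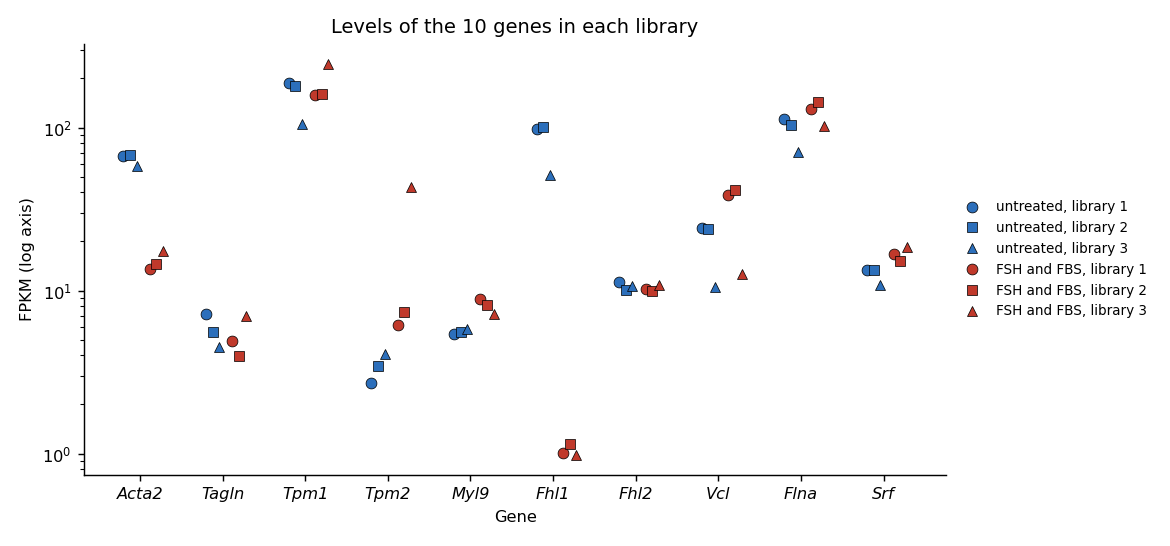
Level of each of the 10 genes in FPKM (log axis) in the 3 untreated libraries (blue) and the 3 FSH and FBS libraries (red), with the symbol shape giving the library number. Acta2 and Fhl1 lie far lower in red, Tpm2 lies higher in red with FSH and FBS library 3 far above the others, and the groups overlap in Tagln, Tpm1, Fhl2, Vcl and Flna.

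Acta2 (ENSMUSG00000035783) encodes smooth muscle alpha-actin, and its listed first exon lies on chromosome 19 at 34255290 to 34255336 in the deposited coordinates, whose build is not given in the sources used here. It stood at 66.6, 67.7 and 58.3 FPKM in the untreated libraries and at 13.6, 14.5 and 17.5 FPKM after FSH and FBS. All 3 untreated libraries lay above all 3 treated ones, and the nearest pair was library 3 of each group. The means were 62.8 ± 6.25 and 15.8 ± 2.41 FPKM (SD, n = 2), a 3.98-fold fall, with a log2 fold change of -1.93 (SE 0.34). In untreated cells Acta2 was above 93.2% of the genes tested. The call was lost without untreated library 3, where the log2 fold change was -2.03, and with first-exon sums only. Under the 3 rescalings tried (median of ratios, equal sums and quantile) the log2 fold change was -2.19 to -2.23. In bulk RNA, fewer cells with the transcript and less of it per cell cannot be told apart. The 2 actin genes that nearly every cell expresses had far higher levels and did not pass: Actb was at 676.2 ± 405.3 FPKM after FSH and FBS against 451.2 ± 179.3 (SD, n = 2), and Actg1 at 1013.7 ± 425.2 against 887.3 ± 101.8 (SD, n = 2). The other muscle actins were close to unlisted: Acta1 was listed in no library, Actc1 at 0.11 FPKM and Actg2 at 0.61 FPKM in untreated library 2 alone.

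Tagln encodes transgelin (SM22), an actin-binding protein of the calponin family and a classical smooth muscle gene that SRF controls. It stood at 7.21, 5.56 and 4.49 FPKM in untreated cells and at 4.93, 3.98 and 7.03 FPKM after FSH and FBS. The groups overlapped fully. The log2 fold change was 0.05 (SE 0.40), or -0.19 relative to the median of all genes. Under the 3 rescalings, which take out most of that median shift, it was -0.17, -0.20 and -0.14. Its close relative Tagln2, named from the list of other actin genes, is the form of non-muscle cells. Tagln2 stood at 22.2, 23.2 and 27.1 FPKM in untreated libraries and at 112.6, 121.3 and 293.6 FPKM after FSH and FBS. It rose 8.25-fold (log2 fold change 2.85, SE 0.48, limma adjusted p = 0.026), with all 3 treated libraries above all untreated ones. Its list was chosen with earlier results known, so this p is descriptive. Without treated library 3 the rise was 4.70-fold (log2 fold change 2.19). That call was lost by median of ratios (adjusted p = 0.097), without untreated library 3 (adjusted p = 0.086), with unlisted genes as 0 (adjusted p = 0.052) and with first-exon sums only.

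Myl9 encodes the regulatory light chain through which non-muscle and smooth muscle myosin II is switched on. Its levels were 5.43, 5.54 and 5.85 FPKM in untreated cells and 8.92, 8.12 and 7.19 FPKM after FSH and FBS. The libraries did not overlap, but the log2 fold change was only 0.41 (SE 0.36) and did not pass. Non-overlap of the 3 libraries was common, found in 38.9% of all genes tested; among the 10 genes it was seen in 5, Acta2, Fhl1, Tpm2, Myl9 and Srf. Mylk, the kinase that phosphorylates this light chain, was listed at 5.11, 5.06 and 4.13 FPKM in untreated cells and at 0.43 and 0.61 FPKM in treated libraries 1 and 2. It was unlisted in the third treated library and so was not tested. With unlisted genes taken as 0 it did not pass (limma adjusted p = 0.12). Flnc, from the list of other adhesion genes and also not tested, lay the other way. It was listed at 4.69, 4.90 and 7.54 FPKM in treated libraries and in no untreated library. With unlisted genes as 0 its log2 fold change was 2.81 (limma adjusted p = 0.058). Mylk and Flnc were named after their values were seen.

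Tropomyosins are coiled-coil proteins that lie along actin filaments and set which myosins and other proteins can bind. Each tropomyosin gene makes several isoforms, through a choice of first exon and through pairs of exons of which 1 is used. Tpm1 was the highest of the 10 genes. It stood at 188.4, 179.6 and 104.7 FPKM in untreated cells and at 157.8, 161.3 and 246.8 FPKM after FSH and FBS. The groups overlapped, with library 3 lowest in the untreated group and highest in the treated one, and the log2 fold change of 0.51 (SE 0.46) did not pass. Tpm2 stood at 2.70, 3.44 and 4.09 FPKM in untreated cells and at 6.12, 7.39 and 43.4 FPKM after FSH and FBS. Its libraries did not overlap, yet the treated mean of 25.1 ± 25.9 FPKM (SD, n = 2) rested on library 3. The log2 fold change was 2.03 (SE 0.72), and 0.77 without that library. Tpm2 did not pass, but it did when the library number was kept as a block, a fit that called 1447 genes in place of 214. Its levels come from last exons in every library; a first exon was listed only in FSH and FBS library 3, at 34.6 FPKM. Tpm4 was at 187.4 ± 0.95 against 175.2 ± 40.1 FPKM (SD, n = 2) and Tpm3 at 21.7 ± 8.92 against 27.2 ± 1.41 FPKM (SD, n = 2), and neither passed (limma adjusted p = 0.92 and 0.68).

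The first exon of Tpm1 differed between libraries more than its level. The distal first exon (chromosome 9, 67049019 to 67049267), which begins the long isoforms, took 69.6% and 71.4% of first-exon FPKM in untreated libraries 1 and 2, but 34.7% in untreated library 3. After FSH and FBS it took 32.6%, 34.4% and 34.3%. The proximal first exon (67043578 to 67043907), which begins the short isoforms, took the rest. All 3 untreated libraries thus lay above all 3 treated ones, but untreated library 3 only just. The mean share was 33.9% ± 0.61 in the treated group and 52.6% ± 25.4 in the untreated group (SD, n = 2). The exact permutation p was 0.333 (two-sided), the smallest that 2 against 2 samples allow, so the test cannot decide whether the groups differ. The difference was -18.7 percentage points, and -36.6 without untreated library 3. In FPKM the proximal first exon stood at 57.2, 51.3 and 68.4 in untreated cells and at 106.4, 105.9 and 162.1 after FSH and FBS, with no overlap. The distal first exon stood at 131.1, 128.3 and 36.3 against 51.4, 55.4 and 84.7.

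Tpm1 also holds a pair of neighbouring internal exons that splice to the same flanking exons. The downstream exon of the pair (67031951 to 67032026) took 54.1%, 63.1% and 47.2% of the FPKM of both in untreated cells and 41.5%, 35.6% and 34.2% after FSH and FBS. All 3 treated libraries lay below all untreated ones, with means of 36.4% ± 3.08 and 52.9% ± 8.09 (SD, n = 2; exact permutation p = 0.333, the smallest possible here). Leaving out 1 library at a time gave differences of -14.3 to -22.2 percentage points. The corresponding pair in Tpm2 differed in the same direction. Introns that join the downstream exon of that pair to the next exon (chromosome 4, 43518464 to 43518644) took 34.1%, 26.8% and 48.5% of the FPKM of both in untreated cells and 17.9%, 12.5% and 12.3% after FSH and FBS. The means were 13.8% ± 2.065 and 39.5% ± 12.7 (SD, n = 2; exact permutation p = 0.333). The difference was -25.7 percentage points, and -16.7 without untreated library 3. In untreated cells these Tpm2 shares rest on forms of only 0.78 to 2.13 FPKM.

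**Figure D2:**
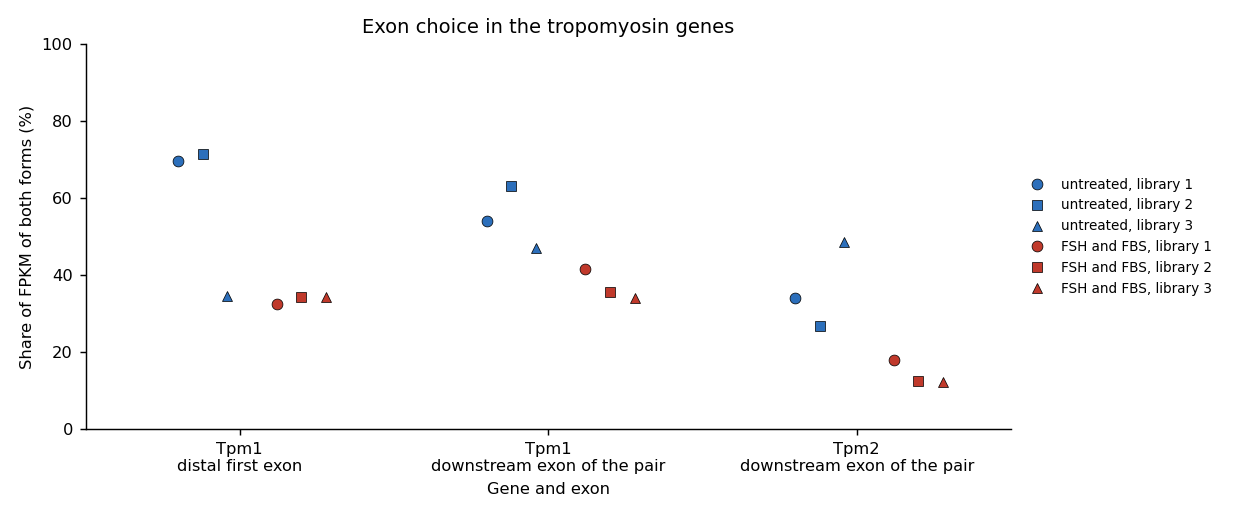
Share (%) of the FPKM of both alternatives taken by the distal first exon of Tpm1 and by the downstream exon of the internal pair in Tpm1 and Tpm2, in each library (blue untreated, red FSH and FBS; the symbol shape gives the library number). For both exon pairs the 3 treated libraries lie below the 3 untreated ones. The same holds for the Tpm1 first exon, where untreated library 3 sits at 34.7%, only just above the treated libraries.

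A further pair of Tpm1 exons lies next to the distal first exon. Its upstream exon (67048124 to 67048249) is known from smooth muscle, and its downstream exon (67047786 to 67047911) is the one of most other cells. Forms that skip the upstream exon stood at 51.3, 55.4 and 84.7 FPKM in treated cells and at 131.1, 120.3 and 35.1 FPKM in untreated ones. Forms that skip the downstream exon, and so join the smooth muscle exon directly, stood at 0.026, 0.030 and 0.014 FPKM in treated cells and at 0.033, 0.69 and 1.13 FPKM in untreated ones. The smooth muscle exon was thus the minor choice in every library, and highest in untreated library 3. An exon near the 3′ end of Tpm1 (67029664 to 67029742) was kept in 98.3%, 3.12% and 90.9% of the FPKM of its 2 forms after FSH and FBS and in 5.91%, 96.3% and 5.02% in untreated cells. Libraries 1 and 2, alike in nearly all genes, lay at opposite ends there in both groups. The low shares rest on little signal. In treated library 2 the form with this exon had 0.0051 FPKM and the form without it 0.16 FPKM. Untreated libraries 1 and 3 had 0.0066 and 0.0094 FPKM with it, against 0.10 and 0.18 FPKM without it. Where the share was high, the form with the exon had 4.75 to 24.7 FPKM. In each library both forms lay far below the level of Tpm1, so these shares do not describe most of its transcript. The only Tpm1 last exon listed stood at 0.032 to 0.15 FPKM, so the choice of last exon in Tpm1 could not be given. Tpm2 had a second, longer last exon (43514711 to 43516003), listed at 1.16, 0.88 and 0.37 FPKM in treated cells and in no untreated library. A Tpm2 form that keeps the introns around the exon pair was listed at 0.41 and 0.0023 FPKM in treated libraries 2 and 3 and at 0.53 FPKM in untreated library 2.

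Fhl1 (ENSMUSG00000023092) encodes a protein built of LIM domains that is abundant in striated muscle, where it binds titin and takes part in responses to stretch. Its first exon lies on chromosome X at 56731787 to 56731868. It stood at 98.1, 100.5 and 50.9 FPKM in untreated cells and at 1.003, 1.14 and 0.98 FPKM after FSH and FBS. The lowest untreated library lay far above the highest treated one. The means were 75.1 ± 34.2 and 1.02 ± 0.068 FPKM (SD, n = 2), a 73.2-fold fall on the FPKM scale, with a log2 fold change of -5.15 (SE 0.42) on log2(FPKM + 1). In untreated cells Fhl1 was above 94.6% of the genes tested. The log2 fold change was -5.35 to -5.36 under the 3 rescalings. In untreated libraries 1 and 2, but hardly in 3, a part of Fhl1 kept an additional exon (56791239 to 56791438): forms with it stood at 16.5, 16.4 and 0.084 FPKM, which was 16.8%, 16.3% and 0.18% of the FPKM of both forms. This exon was listed in no treated library. A longer version of the first exon (56731787 to 56732168) had nearly the same pattern, at 16.8, 16.7 and 0.32 FPKM in untreated cells and unlisted after FSH and FBS. The Fhl1 forms were picked after their values were seen.

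Fhl2, the relative of Fhl1 that acts as a cofactor of several transcription factors and is itself a known SRF target, did not follow it. It stood at 11.4, 10.03 and 10.6 FPKM in untreated cells and at 10.2, 9.98 and 10.8 FPKM after FSH and FBS. The values spanned the same narrow range in both groups, with a log2 fold change of -0.03 (SE 0.34). Nearly all of it came from the first exon at chromosome 1, 43163702 to 43163961, whose start is the RefSeq start printed above with its CArG box. The distal first exon of Fhl2 was listed only in untreated libraries 1 and 2, at 0.10 and 0.47 FPKM. Fhl3, the third family member measured, was at 8.81 ± 3.31 against 6.03 ± 0.96 FPKM (SD, n = 2), and its difference missed the threshold (limma adjusted p = 0.63). The difference between the fold changes of family members was not tested.

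Vcl encodes vinculin, which links talin and actin at focal adhesions and junctions. It stood at 24.2, 23.8 and 10.5 FPKM in untreated cells and at 38.8, 41.2 and 12.6 FPKM after FSH and FBS. Library 3 was lowest in both groups, and the groups overlapped through it; the log2 fold change of 0.48 (SE 0.59) was 1.27 without FSH and FBS library 3 and -0.085 without untreated library 3. Flna encodes filamin A, which crosslinks actin filaments and anchors integrins to them. It stood at 112.3, 103.9 and 71.2 FPKM in untreated cells and at 129.9, 142.6 and 102.9 FPKM after FSH and FBS. Again library 3 was lowest in each group, and the log2 fold change of 0.43 (SE 0.40) did not pass and turned to -0.019 under quantile normalization. The Flna level rests on first exons; its listed last exon stood at only 1.79 to 6.71 FPKM, and on that basis the log2 fold change was -0.11.

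Srf itself stood at 13.3, 13.5 and 10.8 FPKM in untreated cells and at 16.9, 15.1 and 18.6 FPKM after FSH and FBS. All treated libraries lay above all untreated ones, by little: the log2 fold change of 0.49 (SE 0.35) did not pass, and it was 0.20 to 0.23 under the 3 rescalings. An internal exon of Srf (chromosome 17, 46549845 to 46550036) was skipped in 14.5%, 19.3% and 23.8% of the FPKM of its 2 forms after FSH and FBS. In untreated library 2 the share was 11.96%, and in untreated libraries 1 and 3 the skipped form was not listed. The skipped form stood at 2.25, 2.92 and 4.43 FPKM against 1.61 FPKM. This form too was picked after its values were seen, and no test was run on it.

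**Figure D3:**
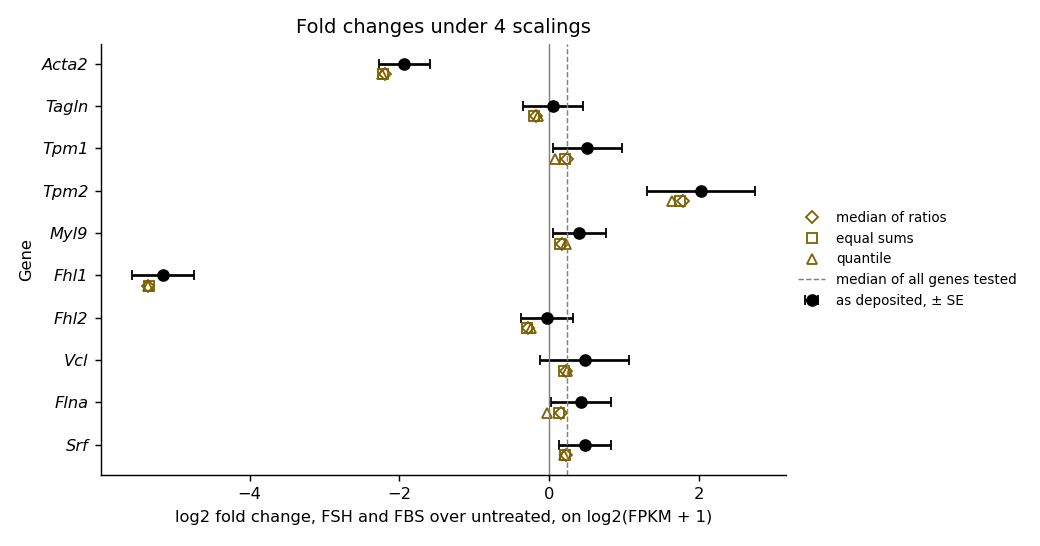
log2 fold change of each gene, FSH and FBS over untreated, on log2(FPKM + 1): filled circles with SE for the values as deposited and open symbols for 3 rescalings. The dashed line is the median of all genes tested as deposited (0.24) and does not apply to the open symbols. Fhl1 and Acta2 stand far to the left under each scaling, Tpm2 to the right with a wide error, and the other 7 genes lie near the dashed line.

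Among the partners of SRF, the 3 tested cofactor genes did not pass (0 called by limma), with a median log2 fold change of 0.52. Mrtfa, which encodes MRTF-A, was at 5.66 ± 0.48 against 3.46 ± 0.79 FPKM (SD, n = 2; adjusted p by limma = 0.48). Elk4 was at 7.94 ± 1.65 against 5.94 ± 4.45 and Elk3 at 2.94 ± 2.06 against 3.88 ± 0.13 FPKM (SD, n = 2, adjusted p by limma = 0.65 and 0.70). The untreated Elk3 libraries stood at 2.33, 5.60 and 3.79 FPKM, a spread that averaging libraries 1 and 2 hides. Myocd, the gene of myocardin, was listed in all 3 untreated libraries, at 7.48, 8.06 and 2.45 FPKM, and in 1 treated library, at 0.73 FPKM. Mrtfb was listed at 7.08, 6.74 and 3.26 FPKM in untreated cells and at 3.09 and 3.84 FPKM in treated libraries 1 and 2. Neither gene was listed in every library, so neither was tested; with unlisted genes as 0 neither passed (limma adjusted p = 0.18 and 0.43). Elk1 was listed in no library. Myocd and Mrtfb were named after their values were seen.

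The 4 lists of other pathway genes held 63 genes, of which 47 were tested, 1 was higher (Tagln2) and 1 lower (Csrp2). Their median log2 fold change was 0.29, against 0.24 over all genes. The 3 libraries of the groups did not overlap in 42.6% of them, against 38.9% of all genes. With the library number as a block, 7 of the 47 were higher and 2 lower. The same fit called 1040 higher and 407 lower over all genes tested, so passing with the block was common.

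**Figure D4:**
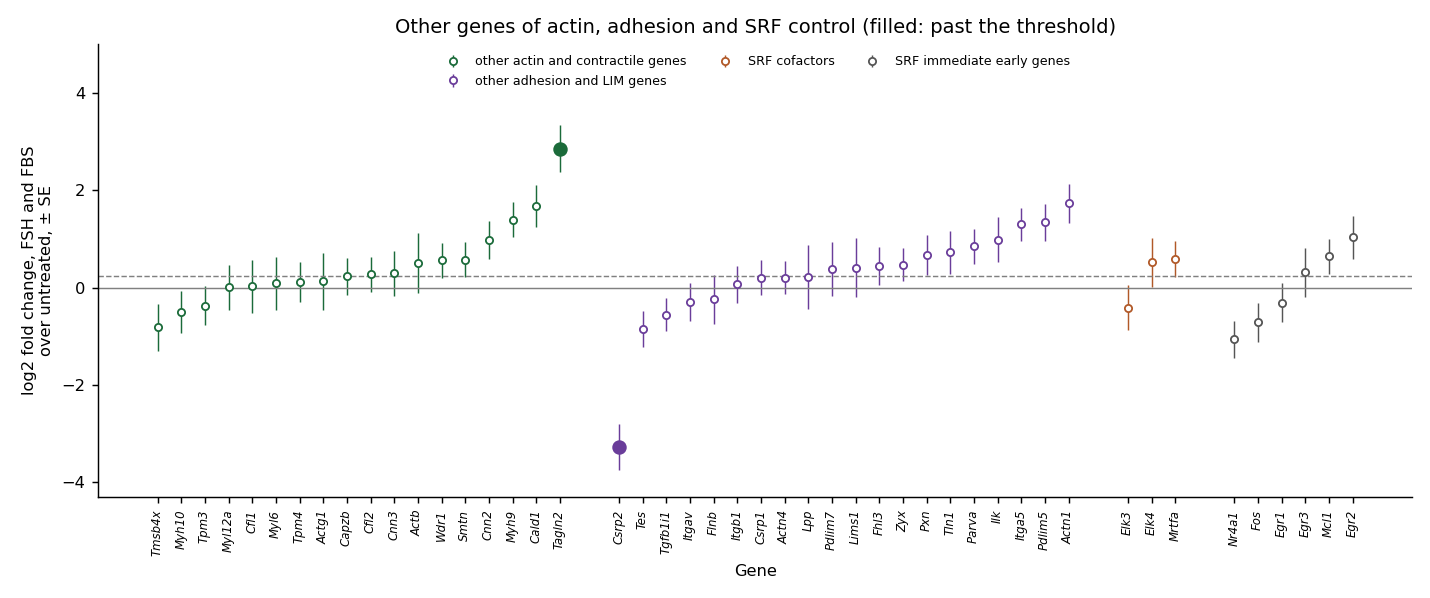
log2 fold change with SE of the 47 tested genes of the other pathway lists, grouped and coloured by list, with a dashed line at the median of all genes tested; filled points passed the threshold. Tagln2 at 2.85 and Csrp2 at -3.27 are the filled points, and most others lie within 1 unit of the dashed line.

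Of 20 tested adhesion and LIM genes, 1 was lower and none higher, and the median log2 fold change was 0.40. Csrp2, which encodes the LIM protein CRP2 of smooth muscle and is a known SRF target, stood at 475.3, 493.0 and 598.2 FPKM in untreated cells and at 36.8, 38.4 and 79.6 FPKM after FSH and FBS. It fell 9.24-fold (log2 fold change -3.27, SE 0.48, limma adjusted p = 0.0145), with no overlap between the groups. As for Tagln2, the p is descriptive, since the list was chosen with earlier results known. Without treated library 3 the Csrp2 fall was 14.4-fold (log2 fold change -3.81). The Csrp2 call held under all 3 rescalings and was lost without untreated library 3 (adjusted p = 0.069). Actn1, the actin crosslinker alpha-actinin 1, was at 46.2 ± 12.4 against 13.4 ± 4.75 FPKM (SD, n = 2) and just missed the threshold (limma adjusted p = 0.072); it passed with the block (adjusted p = 0.00145). Itga5, the integrin subunit of the fibronectin receptor, was at 42.6 ± 7.40 against 16.6 ± 1.06 FPKM, and Pdlim5, a PDZ and LIM protein, at 17.5 ± 2.26 against 6.48 ± 2.24 FPKM (SD, n = 2). Neither passed (limma adjusted p = 0.11 and 0.13), and both did with the block (adjusted p = 0.012 and 0.0050).

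Of 18 tested actin and contractile genes, Tagln2 was higher and none was lower, with a median of 0.25. Myh9, the heavy chain of non-muscle myosin IIA, was at 41.0 ± 8.53 against 14.8 ± 1.38 FPKM, and Cald1, the filament-binding caldesmon, at 68.0 ± 26.4 against 20.6 ± 8.06 FPKM (SD, n = 2). Their limma adjusted p was 0.094 and 0.10, and with the block 0.0067 and 0.0027. Without FSH and FBS library 3 the log2 fold changes of Myh9, Cald1 and Actn1 were 1.61, 2.07 and 1.996. Without untreated library 3 they were 1.31, 1.28 and 1.38. None of the 3 genes passed under the 3 rescalings (limma adjusted p 0.14 to 0.32). Cnn2, a calponin of non-muscle cells, was at 22.2 ± 8.61 against 10.4 ± 1.64 FPKM (SD, n = 2; adjusted p by limma = 0.27, and 0.049 with the block). Myh11 and Lmod1, genes of differentiated smooth muscle, were listed in no library, and Cnn1 in FSH and FBS library 1 alone at 0.39 FPKM.

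Of 6 tested immediate early genes of SRF none passed by limma, with a median of -0.00084 and members on both sides. Egr2 was at 14.6 ± 3.87 against 7.01 ± 3.83 FPKM and Mcl1, a survival factor, at 54.4 ± 6.05 against 34.7 ± 7.24 FPKM (SD, n = 2; adjusted p by limma = 0.30 and 0.42). Nr4a1, an orphan nuclear receptor, was at 14.6 ± 5.45 against 30.6 ± 1.51 FPKM and Fos at 12.7 ± 5.10 against 20.7 ± 4.31 FPKM (SD, n = 2, adjusted p by limma = 0.23 and 0.43). With the block Nr4a1 passed (limma adjusted p = 0.031). The untreated Nr4a1 libraries stood at 43.6, 15.4 and 31.7 FPKM. Library 2 of these lay below FSH and FBS library 3, at 18.5 FPKM. Averaging libraries 1 and 2 hides this spread, and both the SD and the block fit rest on that average.

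Markers of other cells, from lists chosen with earlier results known, were set beside the falls of Acta2 and Fhl1. Of 15 smooth muscle and pericyte markers, 7 were listed in any library; they summed to 7.61 to 12.6 FPKM in untreated cells and to 2.53 to 5.70 FPKM after FSH and FBS. Cspg4, the only one tested, lay the other way, at 0.73, 1.05 and 0.51 FPKM in untreated and 1.76, 1.76 and 4.91 FPKM in treated cells (limma adjusted p = 0.24). Myh11, Lmod1, Rgs5, Notch3, Kcnj8, Abcc9, Higd1b and Synpo2 were in no table. Myocd held most of the sum in untreated libraries 1 and 2, and Mcam, at 4.65 FPKM, most of it in untreated library 3. Of 14 theca and stroma markers, 10 were listed in any library, summing to 76.0 to 81.4 FPKM in untreated cells and to 27.9 to 32.02 FPKM after FSH and FBS. Aldh1a1 held most of this, at 58.0, 56.9 and 65.6 FPKM against 14.5, 14.0 and 10.8 FPKM, and was lower (limma adjusted p = 0.020). The other 2 tested, Ptch1 and Nr2f2, were not called. Ptch1 stood at 7.52, 6.45 and 2.34 FPKM in untreated and 8.95, 10.1 and 10.3 FPKM in treated cells, and Nr2f2 at 6.03, 4.72 and 4.95 against 5.40, 5.39 and 6.81 FPKM. Dcn was listed at 7.86, 7.01 and 2.99 FPKM in untreated cells and in no treated library, Col1a1 and Col3a1 stood at 0.68 FPKM or less, and Cyp17a1, the defining enzyme of theca cells, was listed once, at 0.032 FPKM. The 15 leukocyte markers summed to 9.69 to 12.9 against 2.96 to 7.68 FPKM and the 10 endothelial markers to at most 0.45 against 2.58 to 3.37 FPKM. The 25 oocyte markers summed to 34.9 to 43.9 FPKM in untreated cells, to 4.81 and 5.82 FPKM in FSH and FBS libraries 2 and 1 and to 40.0 FPKM in library 3, where Acta2 stood at 17.5 and Fhl1 at 0.98 FPKM. Tle6 held nearly all of the sum in treated libraries 1 and 2. It stood at 5.56, 4.62 and 7.42 FPKM in treated cells and lay lower, at 1.49, 2.17 and 4.24 FPKM, in untreated ones. Gdf9 stood at 0.26, 0.16 and 8.77 FPKM in treated cells and at 4.16, 5.10 and 6.06 FPKM in untreated ones. The part of other cells in the falls of Acta2 and Fhl1 was not tested. Of 13 cumulus and granulosa markers 11 were listed and 9 tested, with a median log2 fold change of 0.30. Of these, 1 was lower, Wt1 (limma adjusted p = 0.029), and none was higher by limma. Inha stood at 349.7 to 502.5 FPKM in untreated and 276.1 to 282.1 FPKM in treated cells. In the same order Wt1 stood at 3.73 to 9.03 against 0.0063 to 0.42 FPKM. Fshr stood at 3.08 to 7.92 against 1.42 to 2.09 FPKM and Slc38a3 at 1.64 to 5.35 against 0.70 to 1.86 FPKM. Nr5a2 stood at 22.1 to 30.2 against 47.6 to 61.4 FPKM and Amh at 1.28 to 2.38 against 4.37 to 12.6 FPKM. Inhba stood at 8.09 to 32.2 against 19.7 to 125.8 FPKM and Hsd17b1 at 20.3 to 37.9 against 42.3 to 68.6 FPKM. Nr5a1 stood at 25.6 to 28.5 against 27.9 to 38.5 FPKM. Foxl2 and Inhbb were in no table.

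The genes most like Acta2 across the 6 libraries, by Pearson's r of log2(FPKM + 1) among 6743 genes with a mean of at least 5 FPKM, were Ccn2 (r = 0.9997), Serpinb1a (0.9993), Arhgef28 (0.9989), Cxcl10 (0.9987) and F3 (0.9968). Ccn2 encodes connective tissue growth factor, Serpinb1a a protease inhibitor, Arhgef28 a guanine nucleotide exchange factor, Cxcl10 a chemokine and F3 tissue factor. Their log2 fold changes were -6.31, -1.62, -1.73, -3.01 and -1.45, and Ccn2 and Cxcl10 were called lower. The genes most like Fhl1 were Tubb2b, a beta-tubulin (0.9992), Edn1, the endothelin 1 precursor (0.9987), Dync1i1, a dynein chain (0.9986), Mras, a Ras-family GTPase (0.9984), and Omd, osteomodulin (0.9980). Their log2 fold changes were -2.95, -4.17, -0.997, -0.83 and -3.16, and Tubb2b, Edn1 and Omd were called lower. These r values describe 6 libraries in 2 groups, of which libraries 1 and 2 are nearly the same, and r takes no account of the size of a change. Genes picked for likeness to Acta2 or Fhl1 in these libraries are lower after FSH and FBS by that choice. Their direction and calls are therefore not a separate result. Several reached the mean of 5 FPKM only through the untreated group: Cxcl10, Edn1 and Omd had treated means of 0.41, 0.50 and 0.40 FPKM.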

How the data were processed

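RNA was sequenced from mouse cumulus cells in 3 FSH and FBS libraries and 3 untreated libraries; small-RNA samples (6) were not analysed here. The deposited tables, 1 per library, hold FPKM values of transcript events such as first exons, last exons, skipped exons and retained introns, per the file headers. The submitters' processing notes name HISAT2 2.0.1; assembler, filters and build are not given in the sources used here. No event is listed at 0, and depth is unknown, so no counting interval is given.

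Per gene, first-exon FPKM and last-exon FPKM were each summed on the strand with most signal, and the larger sum was used. The name table matched 13281 of 13318 genes. The 9022 genes present in each of the 6 tables and averaging 1 FPKM or more went into limma 3.58.1 (R 4.3.3; trended variance; two-sided; p-values adjusted by Benjamini-Hochberg) as log2(FPKM + 1), a scale that shrinks fold changes of low genes. The fit was run on simulated data as a check of the code. Its noise was independent between samples, without the deviations that same-numbered libraries share. The run therefore does not show how the fit performs on these data. Event shares were taken per library, with unlisted forms as 0, and compared by an exact permutation test (scipy 1.17.1).

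The members and gene lists were chosen with earlier results of these data known; 1 further list is not reported here. Named are all members, up to 4 tested genes of each pathway list with the smallest adjusted p, tested SRF cofactors, Tpm3, Tpm4, Fhl3, the 5 genes most like Acta2 and Fhl1, and tropomyosin events of at least 5%. Same-numbered libraries deviated together over genes (r = 0.32, 0.31 and 0.51 for numbers 1, 2 and 3; 0.51 after averaging), so the numbers were also fitted as a block. Numbers 1 and 2 paired as well when crossed (r = 0.31 and 0.33), since they are nearly the same library.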

Additional observations from a re-analysis of the deposited data

How the results depend on the processing

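Of the 9022 genes, 152 were called higher and 62 lower. All 6 libraries as separate replicates gave 973 and 350, the replicate block over 4 samples 1040 and 407, and the replicate block over 6 libraries 1516 and 584. Median of ratios gave 49 and 41, equal sums 59 higher, and first-exon sums only 42 and 21. Leaving out 1 library gave 60 to 272 higher and 41 to 112 lower, with the lowest counts without untreated library 3 and the highest without FSH and FBS library 3. Of calls, 71.0% were higher, against 54.4%, 56.7% and 56.8% by median of ratios, equal sums and quantile normalization.

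Of the other pathway genes, 1 was higher and 1 lower. The numbers were 7 and 2 with separate replicates, 7 and 2 with the replicate block over 4 samples and 8 and 5 with the block over 6 libraries. None was higher with unlisted genes as 0, by median of ratios or with first-exon sums only, and 2 were with last-exon sums only. Leaving out 1 library gave 0 to 4 higher and 0 to 1 lower.

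Tagln turned from 0.05 to -0.11 with separate replicates and with the block over 6 libraries, to -0.17, -0.20 and -0.14 under the rescalings and to -0.020 with first-exon sums; leaving out 1 library gave -0.22 to 0.14. Flna turned to -0.019 by quantile normalization and -0.11 with last-exon sums. Leaving out 1 library gave -0.071 to 0.016 for Fhl2 and -0.085 to 1.27 for Vcl. Acta2 lost its call with first-exon sums only and without untreated library 3, and Tpm2 gained one with the replicate block over 4 samples. Leaving out a library that lists only some of the forms changed none of the 3 tropomyosin shares followed, since all forms were listed. With library 3 of a group left out, the lone sample is assumed to vary like the other group.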
